A study of Homo sapiens with 6 samples.

Results

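The cyclin-dependent kinase (CDK) inhibitor genes examined here are CDKN1A, CDKN1B and CDKN1C of the CIP/KIP family, CDKN2A, CDKN2B, CDKN2C and CDKN2D of the INK4 family, and CDKN3. They were taken by gene symbol from the deposited expression table, where each of the 8 has 1 row among 23344. The table comes from RNA sequencing of Huh7, an established human liver cancer line. The knockdown group had received a lentivirus against the V1 isoform of versican (titled sh2), and the control group a control lentivirus (titled shNC), with 3 libraries in each group. Versican, encoded by VCAN, is a matrix proteoglycan that carries chondroitin sulfate chains. Both groups were exposed to virus made in 293T cells with polybrene, and the knockdown libraries bear the name of a single hairpin. Whether the libraries of a group are separate cultures is not given in the labels, so each p-value reflects the spread among these 6 libraries alone, and that spread may be technical.

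CDKs drive cells through the division cycle when a cyclin is bound to them, and their inhibitors hold them back. CIP/KIP proteins (p21, p27 and p57) bind cyclin-CDK complexes of several kinds, whereas INK4 proteins (p16, p15, p18 and p19) bind CDK4 and CDK6 and keep the D cyclins from activating them, which leaves the pocket proteins of the RB family free to restrain E2F factors. CDKN3 encodes KAP, a phosphatase that removes the activating phosphate from CDK2, and its transcript is made mainly by dividing cells.

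Values are per transcript length and library and were treated as FPKM, although the file does not name its unit. How many reads stand behind each library is not known. They summed to 922125 to 975501 in knockdown and 851418 to 947769 in control libraries. Mitochondrially encoded genes made up 23.8% to 31.2% of the sum in knockdown and 16.0% to 19.2% in control libraries. VCAN had 1.90, 1.74 and 1.64 FPKM in the knockdown libraries, against 4.79, 6.24 and 8.10 in the control libraries (log2 fold change -1.39, SE 0.19, limma adjusted p = 0.0103). Without control replicate 2 the adjusted p of VCAN was 0.0537, and over 12 alternatives it ran from 0.00273 to 0.0537. All 12 hepatocyte and hepatoma markers fixed for the check, ALB and AFP among them, were at 9.97 or more in every library. Of the leukocyte and blood markers 10 of 12 were analysed, with a summed level of 108 to 203 in knockdown and 75.6 to 92.0 in control libraries. Most of that sum was CD14, at 45.6 to 72.5 over all libraries with overlapping groups, and LYZ. LYZ, a lysozyme gene, rose (log2 fold change 1.08, limma adjusted p = 0.0277). It had 44.53, 68.21 and 37.79 FPKM in the knockdown libraries and 18.30, 24.72 and 24.84 in the control libraries. The difference in LYZ was thus not confined to a single library. Without knockdown replicate 2 the log2 fold change of LYZ was 0.84 (limma adjusted p = 0.0688; range over 12 alternatives 0.0177 to 0.0915). Knockdown replicate 2 alone had PTPRC at 1.96, against 0.16 or less elsewhere, and S100A8 at 17.9, against 0 elsewhere. In the same library NKG7 was at 5.54, against 0.1 or less elsewhere, and S100A9 at 30.57, against 4.13 or less elsewhere. The part of these transcripts in the other results was not tested, apart from leaving out that library. Of the fibroblast and endothelial markers 6 of 8 were analysed, and 4 of these were below 1 in every library; the summed level was 149 to 174 in knockdown and 164 to 184 in control libraries, nearly all of it LUM. Knockdown replicate 1 was as like control replicate 1 as it was like the other knockdown libraries (Pearson's r of log2 values across 13696 genes 0.976 with control replicate 1, and 0.975 and 0.970 with knockdown replicates 2 and 3; genes are not independent replicates).

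CDKN2B and CDKN1A rose in the knockdown libraries and CDKN2C fell, while the other members tested did not pass the test. A gene is said to have risen or fallen where limma gave an adjusted p below 0.05 over all 13696 genes tested. The table had 4.15% of its tested genes higher and 3.94% lower by this rule, 8.08% in all. That was 1107 genes, against 3284 without knockdown replicate 1 and 56 to 244 without any 1 other library. Of 13408 genes tested without knockdown replicate 1, 1573 rose and 1711 fell, the background for the list counts in that setting. Of the 8 members, 7 reached 1 FPKM in 3 or more libraries, the filter on low values, and were tested; CDKN1C did not. Of the 7 tested, 2 rose and 1 fell, and the groups did not overlap for 4 of them, CDKN1A and CDKN2B (higher in knockdown) and CDKN1B and CDKN2C (lower). Over all tested genes the groups did not overlap for 33.1%, 14.4% with knockdown higher and 18.7% with it lower. The members were chosen with earlier results of these data known, so their counts are a description.

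**Figure D1:**
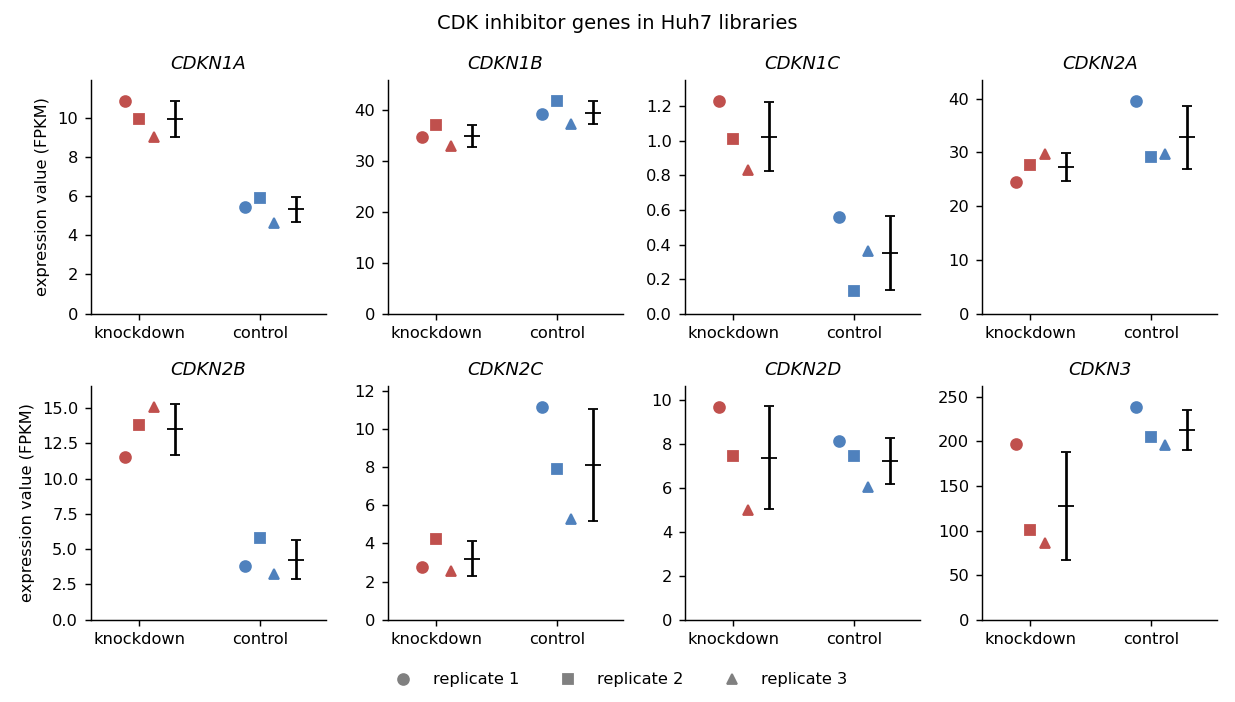
Expression value (FPKM, linear axis from 0, its own range in each panel) of the 8 CDK inhibitor genes in each library, knockdown on the left and control on the right. Symbols mark the replicate number, and the bar shows the mean and SD of 3 libraries. CDKN2B sits at 11.55 to 15.05 in knockdown and at 3.21 to 5.80 in control libraries, and the groups of CDKN2A, CDKN2D and CDKN3 overlap.

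CDKN2B, which encodes p15, the INK4 inhibitor known as a target of TGF-beta signalling, had the largest rise of the members tested. Its values were 11.55, 13.81 and 15.05 FPKM in the knockdown libraries and 3.79, 5.80 and 3.21 in the control libraries. All knockdown libraries lay above all control libraries. The mean was 13.5 ± 1.78 in knockdown and 4.27 ± 1.36 in control libraries (SD, n = 3 each), a ratio of 3.16. On the log2(value + 1) scale the change was 1.48 (SE 0.20, 95% interval 1.03 to 1.93, limma adjusted p = 0.0103). CDKN2B was the sole member called in all 12 alternatives, with an adjusted p from 0.00202 to 0.0468, and its log2 fold change without knockdown replicate 2, the library with the highest blood marker sum, was 1.46.

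The promoter window of CDKN2B, 250 bases before to 50 bases after the start, is shown because this gene changed most. It is from RefSeq (GRCh38.p14, chr9:22009256-22009555, minus strand), and capitals mark the GC box GGGCGG on either strand:
CDKN2B promoter: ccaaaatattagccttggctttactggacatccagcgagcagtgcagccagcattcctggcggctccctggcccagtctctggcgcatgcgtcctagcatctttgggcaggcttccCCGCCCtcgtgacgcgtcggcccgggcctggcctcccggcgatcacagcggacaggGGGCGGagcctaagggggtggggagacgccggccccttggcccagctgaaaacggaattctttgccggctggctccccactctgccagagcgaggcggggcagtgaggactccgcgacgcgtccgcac
It holds 2 GC boxes, a motif found in 45.0% of 35116 windows of the same length. The letters of the E2F motif (TTTCCCGC or TTTGGCGC, in 2.27% of windows) and the CHR (TTTGAA or TTCGAA, 16.4%) were not found in it. Nor were the E-box (CACGTG, 7.26%) and the palindromic SMAD motif (GTCTAGAC, 0.202%). The p53 motif searched was a single consensus repeat, which is only a part of a full p53 response element. This repeat occurred in 6.63% of windows and was not found in the CDKN2B window. Motifs were searched on both strands, and overlapping matches were each counted.

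CDKN2B lies beside CDKN2A on chromosome 9, and the genes share sequence, which limits how reads can be told apart. Of the different 50-base runs of their GENCODE 29 transcripts, 0.765% of those of CDKN2B and 0.681% of those of CDKN2A occur in both genes, and a read inside them fits either gene. No other member shared a run of 50 bases with a transcript of another gene in that annotation. The antisense RNA gene CDKN2B-AS1 overlaps both genes on the opposite strand. It had 1.37, 0.95 and 1.08 FPKM in the knockdown libraries, against 0.56, 0.55 and 0.79 in the control libraries, and did not reach the filter. The labels do not state whether reads were counted by strand, so reads of the sense and antisense genes may not have been told apart.

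CDKN1A, which encodes p21, the CIP/KIP inhibitor induced by p53 and by stress, rose as well. It had 10.85, 9.92 and 9.03 FPKM in the knockdown libraries, against 5.45, 5.89 and 4.63 in the control libraries. The groups were apart, with a gap between 9.03 and 5.89. The mean was 9.93 ± 0.910 in knockdown and 5.32 ± 0.640 in control libraries (SD, n = 3 each), a ratio of 1.87, and the log2 fold change was 0.79 (SE 0.14, 95% interval 0.47 to 1.12, limma adjusted p = 0.0212). The call rested on all libraries but knockdown replicate 1. Leaving out any of the other 5 gave a limma adjusted p of 0.0526 to 0.0749, against 0.0102 without knockdown replicate 1, with a log2 fold change of 0.71 to 0.86 over all 6. The promoter window, shown because its GC boxes lie close together, is from RefSeq (GRCh38.p14, chr6:36678464-36678763, plus strand), with GC boxes in capitals:
CDKN1A promoter: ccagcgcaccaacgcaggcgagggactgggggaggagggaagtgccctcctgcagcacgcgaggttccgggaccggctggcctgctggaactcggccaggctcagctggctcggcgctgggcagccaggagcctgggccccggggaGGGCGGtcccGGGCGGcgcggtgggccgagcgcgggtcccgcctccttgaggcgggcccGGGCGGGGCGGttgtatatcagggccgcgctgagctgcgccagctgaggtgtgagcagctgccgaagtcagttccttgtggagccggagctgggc
It holds 4 GC boxes, the last 2 of which overlap, and its GC content is 74.3%, against a median of 58.7% over all windows. No match to the other motifs was found in these 300 bases.

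CDKN2C, which encodes p18, an INK4 inhibitor whose gene is a target of E2F factors, fell. Its values were 2.79, 4.23 and 2.54 FPKM in the knockdown libraries, against 11.13, 7.90 and 5.26 in the control libraries. The groups did not overlap, but the control libraries differed among themselves by more than the gap between the groups, which lies between 4.23 and 5.26. The mean was 3.19 ± 0.912 in knockdown and 8.10 ± 2.94 in control libraries (SD, n = 3 each), so that the knockdown mean was 0.394 times the control mean. The log2 fold change was -1.09 (SE 0.26, 95% interval -1.67 to -0.51, limma adjusted p = 0.0397). In limma fits the call was lost when knockdown replicate 2 was left out (log2 fold change -1.26, adjusted p = 0.0692) and when knockdown replicate 3 was (-0.98, 0.123). It was also lost without control replicate 1 (-0.86, 0.104) and without control replicate 2 (-1.08, 0.135); over 12 alternatives the adjusted p was 0.0356 to 0.135. RefSeq lists 3 start sites for CDKN2C, and the table does not separate their transcripts. The window with the most matches is shown (GRCh38.p14, chr1:50968456-50968755, plus strand), with GC boxes in capitals:
CDKN2C promoter: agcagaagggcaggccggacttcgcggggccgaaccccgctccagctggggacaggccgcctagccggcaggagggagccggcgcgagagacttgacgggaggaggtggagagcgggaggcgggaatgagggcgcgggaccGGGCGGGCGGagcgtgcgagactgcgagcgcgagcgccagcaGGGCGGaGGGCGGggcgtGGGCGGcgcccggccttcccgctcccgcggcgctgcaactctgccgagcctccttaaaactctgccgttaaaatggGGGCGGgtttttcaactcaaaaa
It holds 6 GC boxes, while the windows at the other starts hold 1 and 0 GC boxes and 1 E-box each. The letters of the E2F motif searched were not found in any of the 3 windows.

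**Figure D2:**
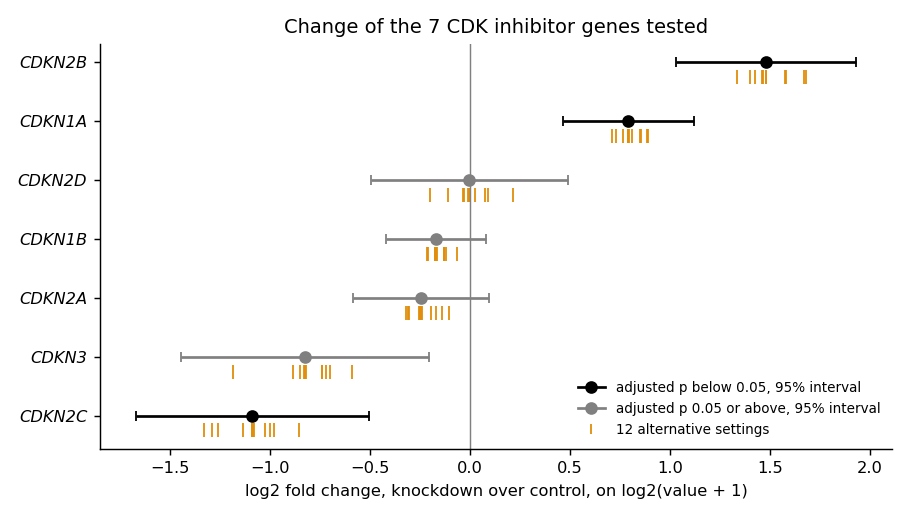
Log2 fold change, knockdown over control, of the 7 members tested, on log2(value + 1). Points and bars give the value and its 95% interval, black where the adjusted p was below 0.05, and orange ticks give the value in each of 12 alternative settings. CDKN2B (1.48) and CDKN1A (0.79) are above 0 and CDKN2C (-1.09) below it with all their ticks, while the ticks of CDKN2D lie on both sides of 0.

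CDKN3 was the most abundant member in every library and did not pass the test. It had 197.19, 100.16 and 85.98 FPKM in the knockdown libraries, against 238.47, 205.46 and 195.61 in the control libraries. Knockdown replicate 1 lay within the range of the control libraries, and the other knockdown libraries lay far below it. The mean was 128 ± 60.5 in knockdown and 213 ± 22.5 in control libraries (SD, n = 3 each; log2 fold change -0.83, SE 0.27, 95% interval -1.44 to -0.21, limma adjusted p = 0.0902). Without knockdown replicate 1 the log2 fold change of CDKN3 was -1.19, and it fell (limma adjusted p = 0.000762); over 12 alternatives the adjusted p was 0.000762 to 0.266.

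CDKN3 was set beside CDK1, the mitotic kinase gene. The ratio of CDKN3 to CDK1 was 1.37, 0.940 and 0.997 in the knockdown libraries and 1.28, 1.09 and 1.28 in the control libraries, so the groups overlapped in this ratio. CDK1 itself had 143.9, 106.6 and 86.2 FPKM in the knockdown libraries, against 187.0, 188.6 and 152.2 in the control libraries (log2 fold change -0.67, SE 0.19, limma adjusted p = 0.0587). In RNA of a whole culture, fewer cells in a phase of the cycle and less RNA per cell cannot be told apart. The RefSeq window of CDKN3 (GRCh38.p14, chr14:54396757-54397056, plus strand) is shown because it is the sole member window with a CHR, a motif of genes expressed in G2 and mitosis, here in capitals on the minus strand:
CDKN3 promoter: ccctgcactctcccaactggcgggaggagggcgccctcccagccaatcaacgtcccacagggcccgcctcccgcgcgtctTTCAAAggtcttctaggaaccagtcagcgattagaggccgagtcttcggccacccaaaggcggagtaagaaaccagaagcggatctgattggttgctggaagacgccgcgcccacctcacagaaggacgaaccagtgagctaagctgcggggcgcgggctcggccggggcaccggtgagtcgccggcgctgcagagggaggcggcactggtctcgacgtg
No GC box was found in this window. The member windows were 10, from 7 members, and CDKN1C had none. The CHR occurs in 16.4% of all windows, so 1 match among the member windows is not unusual.

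**Figure D3:**
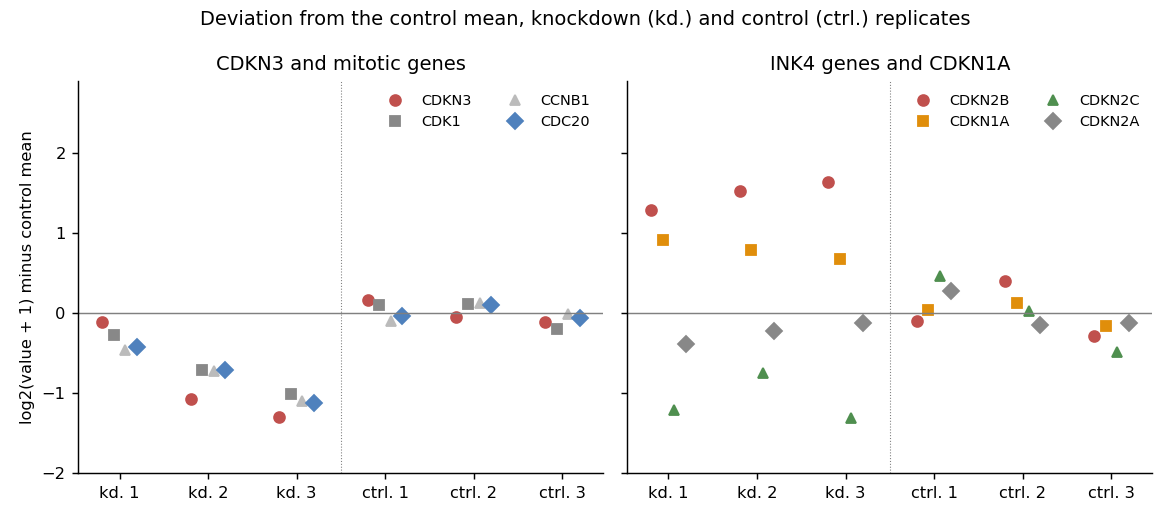
Log2(value + 1) minus the mean of the 3 control libraries, for each library, knockdown on the left. The left panel shows CDKN3 with the mitotic genes CDK1, CCNB1 and CDC20, and the right panel the INK4 genes CDKN2B, CDKN2C and CDKN2A with CDKN1A. All 4 genes of the left panel are nearer to the control libraries in knockdown replicate 1 than in knockdown replicates 2 and 3, whereas CDKN1A and CDKN2B are clear of the control libraries in all 3.

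CDKN1B, which encodes p27, the CIP/KIP inhibitor whose level is set largely by protein degradation, had 34.8, 37.16 and 32.94 FPKM in the knockdown libraries, against 39.27, 41.81 and 37.35 in the control libraries. The groups were apart by a narrow gap, between 37.16 and 37.35. The difference did not pass the test (log2 fold change -0.17, SE 0.11, 95% interval -0.42 to 0.08, limma adjusted p = 0.341). CDKN2A had 24.5, 27.75 and 29.75 FPKM in the knockdown libraries, against 39.57, 29.17 and 29.65 in the control libraries. Control replicate 1 was high, and the other libraries of both groups overlapped (log2 fold change -0.24, SE 0.15, 95% interval -0.58 to 0.09, limma adjusted p = 0.312). The row of CDKN2A joins the transcripts of p16 with those of ARF, a protein read in another frame that binds MDM2, and the annotation has 14 transcripts for it, so these products were not separated.

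CDKN2D, which encodes p19, had 9.66, 7.43 and 5.00 FPKM in the knockdown libraries, against 8.11, 7.46 and 6.05 in the control libraries. The knockdown libraries enclosed the range of the control libraries (log2 fold change -0.004, 95% interval -0.50 to 0.49, limma adjusted p = 0.993), and the sign depended on the scaling and on the libraries used. CDKN1C, which encodes p57, was the lowest member. It had 1.23, 1.01 and 0.83 FPKM in the knockdown libraries, against 0.56, 0.13 and 0.36 in the control libraries. All knockdown libraries lay above all control libraries, at levels where few reads decide a value. With no filter on low values its log2 fold change was 0.59 (limma adjusted p = 0.127).

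Because values are per length, levels can be set beside each other. In knockdown libraries the order of the means was CDKN3, CDKN1B, CDKN2A, CDKN2B (13.5 FPKM), CDKN1A (9.93), CDKN2D (7.36), CDKN2C (3.19) and CDKN1C. In control libraries it was CDKN3, CDKN1B, CDKN2A, CDKN2C (8.10), CDKN2D (7.21), CDKN1A (5.32), CDKN2B (4.27) and CDKN1C. CDKN2B was thus the fourth of 8 in knockdown libraries and the seventh in control libraries, and CDKN2C was the seventh in knockdown libraries and the fourth in control libraries. The ranges of neighbours overlapped for CDKN1A and CDKN2D in knockdown libraries. In control libraries they overlapped for CDKN1B and CDKN2A, for CDKN2C and CDKN2D, and for CDKN1A and CDKN2B. Among all 23344 rows, CDKN2B stood at percentile 74.2 in knockdown and 58.4 in control libraries, and CDKN3 at 96.3 in knockdown and 97.7 in control libraries.

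The summed levels of both families overlapped between groups, while the shares of some members did not. The INK4 genes summed to 48.5, 53.2 and 52.3 FPKM in the knockdown libraries and to 62.6, 50.3 and 44.2 in the control libraries. Of that sum CDKN2B held 23.8%, 26.0% and 28.7% in the knockdown libraries and 6.05%, 11.5% and 7.27% in the control libraries. CDKN2C held 5.75%, 7.95% and 4.85% in the knockdown libraries and 17.8%, 15.7% and 11.9% in the control libraries, so both shares were apart between groups in opposite directions. The ratio of CDKN2A to its neighbour CDKN2B was 2.12, 2.01 and 1.98 in the knockdown libraries and 10.4, 5.03 and 9.24 in the control libraries. The CIP/KIP genes summed to 46.9, 48.1 and 42.8 FPKM in the knockdown libraries and to 45.3, 47.8 and 42.3 in the control libraries. CDKN1A held 21.6% ± 1.33 of it in the knockdown libraries and 11.8% ± 0.726 in the control libraries (SD, n = 3 each), and nearly all of the rest was CDKN1B. These sums and shares are descriptions, with no test.

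**Figure D4:**
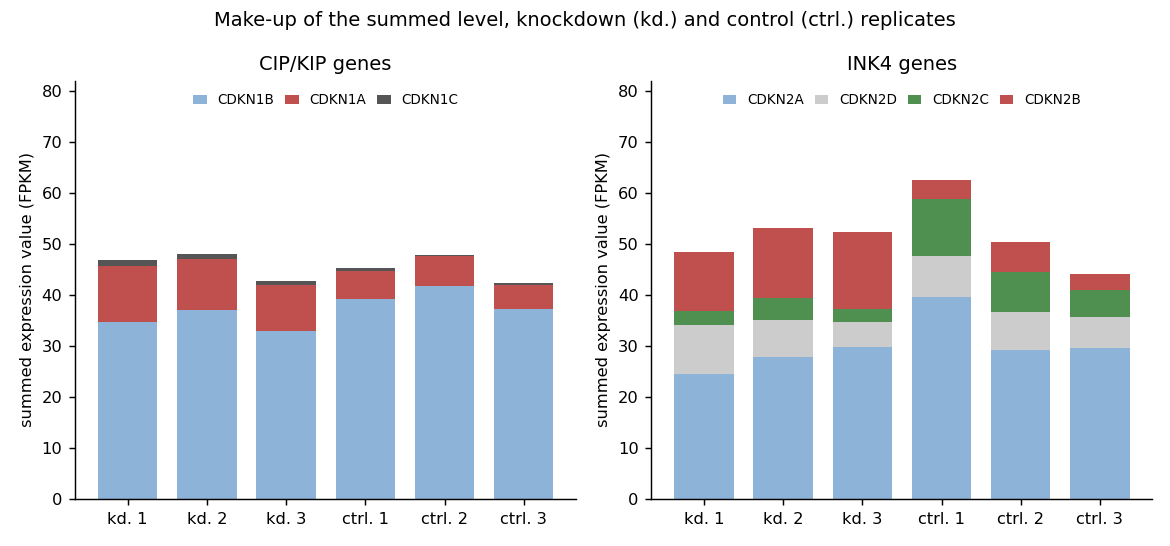
Summed expression value (FPKM, linear axis from 0) of the CIP/KIP genes (left) and the INK4 genes (right) in each library, knockdown libraries to the left of control libraries, stacked by gene. The CIP/KIP sum is 42.8 to 48.1 in knockdown and 42.3 to 47.8 in control libraries, with a larger CDKN1A part in knockdown, and the INK4 bars have a larger CDKN2B part and a smaller CDKN2C part in knockdown.

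Some of the kinases and cyclins that the inhibitors bind fell. Of 11 tested, of a list of 12, 3 fell and 0 rose, and the list's median log2 fold change was -0.55, against -0.03 over all genes tested. CDK2, the kinase of the G1/S transition, had 30.52, 37.62 and 26.16 FPKM in the knockdown libraries, against 49.49, 53.33 and 49.89 in the control libraries, and fell (log2 fold change -0.69, SE 0.14, limma adjusted p = 0.0290). The ratio of CDK2 to CDKN1A was 3.17 ± 0.543 in the knockdown libraries and 9.64 ± 0.989 in the control libraries (SD, n = 3 each). CCNB1, the cyclin of mitotic entry, fell (-0.76, adjusted p = 0.0311), as did CCNA2, the cyclin of S phase and G2 (-0.87, adjusted p = 0.0424), in the same limma fit. CCNA2 passed in 2 of 12 alternatives: each of the 3 other scalings ended its call (limma adjusted p = 0.0529 to 0.0548), and its adjusted p over all 12 was 0.00225 to 0.152. CDK4, the main INK4 target by level here, averaged 114 ± 11.1 FPKM in knockdown and 158 ± 30.4 in control libraries (SD, n = 3 each), and CDK6 2.37 ± 0.607 in knockdown and 3.57 ± 0.473 in control libraries. Neither passed (limma adjusted p = 0.0964 for CDK4 and 0.154 for CDK6). The number of kinases and cyclins that fell was 10 without knockdown replicate 1, 1 without knockdown replicate 2, and 0 without knockdown replicate 3 or any 1 control library.

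Cell-cycle genes moved with these. Of 16 G2 and mitosis genes 10 fell and 0 rose, with a median of -0.71, and of 16 G1/S and replication genes 8 fell and 0 rose, with a median of -0.62. The proliferation marker MKI67 averaged 21.1 ± 4.86 FPKM in knockdown and 34.4 ± 6.93 in control libraries (SD, n = 3 each; log2 fold change -0.69, limma adjusted p = 0.0635). Without knockdown replicate 1 both lists had 14 genes that fell. Without any other library the count was 0 to 2 for each list. With quantile normalization and with median-of-ratios scaling 4 of the G1/S genes fell, and 8 of the G2 and mitosis genes. After rescaling without mitochondrially encoded genes, whose share was higher in knockdown libraries, 6 G2 and mitosis genes, 3 G1/S genes and 1 kinase or cyclin gene fell, and 0 rose.

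Of 16 pocket protein, E2F and partner genes tested, of a list of 17, LIN52 fell and 0 rose, and the median was -0.19. LIN52, a subunit of the DREAM complex that represses cell-cycle genes, had 3.38, 3.05 and 2.60 FPKM in the knockdown libraries, against 6.61, 5.82 and 4.63 in the control libraries (log2 fold change -0.73, SE 0.17, limma adjusted p = 0.0368). The factor genes E2F8 (-0.84), TFDP1 (-0.79) and E2F2 (-0.53) missed the threshold. Without knockdown replicate 1, 4 genes of this list fell and 1 rose, and without any other library 0 were called. The call of LIN52 was also lost after rescaling without mitochondrially encoded genes (log2 fold change -0.64, limma adjusted p = 0.0552; range over 12 alternatives 0.0136 to 0.134).

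In the list of genes around the turnover of the inhibitor proteins, CDC20 and CKS2 fell. The list of 12 has 13 rows, since CKS1B has 2, and 2 rows fell and 0 rose, with a median of -0.46. CDC20, the activator of the anaphase-promoting complex, which targets p21 in mitosis, had 130.1, 106.3 and 79.31 FPKM in the knockdown libraries, against 170.1, 187.7 and 167.4 in the control libraries (log2 fold change -0.76, SE 0.17, limma adjusted p = 0.0357). CKS2, a small CDK-binding protein, fell by 0.53 (limma adjusted p = 0.0422). CKS1B, the cofactor with which SKP2 recognises p27, averaged 284 ± 47.7 in knockdown and 404 ± 36.7 in control libraries in its main row (SD, n = 3 each; log2 fold change -0.52, limma adjusted p = 0.0571). DTL, which directs p21 to degradation in S phase, had a log2 fold change of -0.56, and neither DTL nor CKS1B passed. Without knockdown replicate 1, 5 of these rows fell, and without any other library 0 did.

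Some other genes of the p53 response rose beside CDKN1A. Of 20 tested, of a list of 23, 4 rose and 0 fell, with a median of 0.12. The log2 fold change was above 0 for 11 of the 20 and below 0 for 9. PLK3, a stress-responsive kinase gene, had 14.98, 9.52 and 10.69 FPKM in the knockdown libraries, against 3.68, 4.58 and 3.48 in the control libraries (log2 fold change 1.36, SE 0.19, limma adjusted p = 0.0103), and was called in all 12 alternatives. BTG2, an antiproliferative gene, rose by 1.48, PLK2 by 1.21 and TP53I3, a redox enzyme gene, by 0.72 on the log2 scale. Of 12 alternatives, BTG2 passed in 5, and PLK2 and TP53I3 passed in 6 each. MDM2, which encodes the ubiquitin ligase of p53, averaged 38.1 ± 7.27 FPKM in knockdown and 36.0 ± 9.41 in control libraries (SD, n = 3 each; log2 fold change 0.10, limma adjusted p = 0.789). The number of p53 list genes that rose was 9 without knockdown replicate 1 and 1 without any other library.

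Of 19 activators and repressors of the inhibitor genes, 7 rose and 0 fell, with a median of 0.36. ETS2 and ETS1 encode transcription factors that activate the p16 promoter of CDKN2A. ETS2 had 22.39, 26.16 and 25.89 FPKM in the knockdown libraries, against 7.44, 9.30 and 7.71 in the control libraries (log2 fold change 1.50, SE 0.14, limma adjusted p = 0.00403). ETS1 averaged 5.57 ± 0.701 FPKM in the knockdown libraries and 1.49 ± 0.543 in the control libraries (SD, n = 3 each; log2 fold change 1.41, SE 0.19, limma adjusted p = 0.0103). In both genes the groups lay far apart, and both were called in all 12 alternatives. TGFB2, a TGF-beta ligand gene, TGFBR1, a TGF-beta receptor gene, and SMAD3, a transducer of that signal, rose by 0.97, 0.64 and 0.53. The other TGF-beta ligand, receptor and SMAD genes of the list did not pass. Their log2 fold changes were 0.18 for TGFB1, 0.000133 for TGFBR2, -0.29 for SMAD2 and -0.29 for SMAD4. KLF4, a factor that activates CDKN1A, rose by 0.83. MYC, which represses CDKN2B and CDKN1A through the factor encoded by ZBTB17, also rose, with 40.73, 38.45 and 33.01 FPKM in the knockdown libraries and 12.5, 22.63 and 22.46 in the control libraries (0.97, limma adjusted p = 0.0351). Without knockdown replicate 1, 9 genes of this list rose. The number was 3 or 4 without any other library.

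Of 17 Polycomb and other repressors of the CDKN2A-CDKN2B locus, 1 rose and 0 fell, with a median of -0.23. ID1, an inhibitor of the factors that activate p16 transcription, averaged 1007 ± 227 in knockdown and 1381 ± 136 in control libraries (SD, n = 3 each; -0.47, limma adjusted p = 0.101). Without knockdown replicate 1, 2 genes of the list rose and 2 fell, against 1573 and 1711 of 13408 over the whole table. Without any other library 0 were called. The genes next to CDKN2A and CDKN2B that were tested did not pass: MTAP, a methionine salvage enzyme gene, had a log2 fold change of -0.20 (95% interval -0.53 to 0.14) and KLHL9 one of 0.15 (-0.22 to 0.51).

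**Figure D5:**
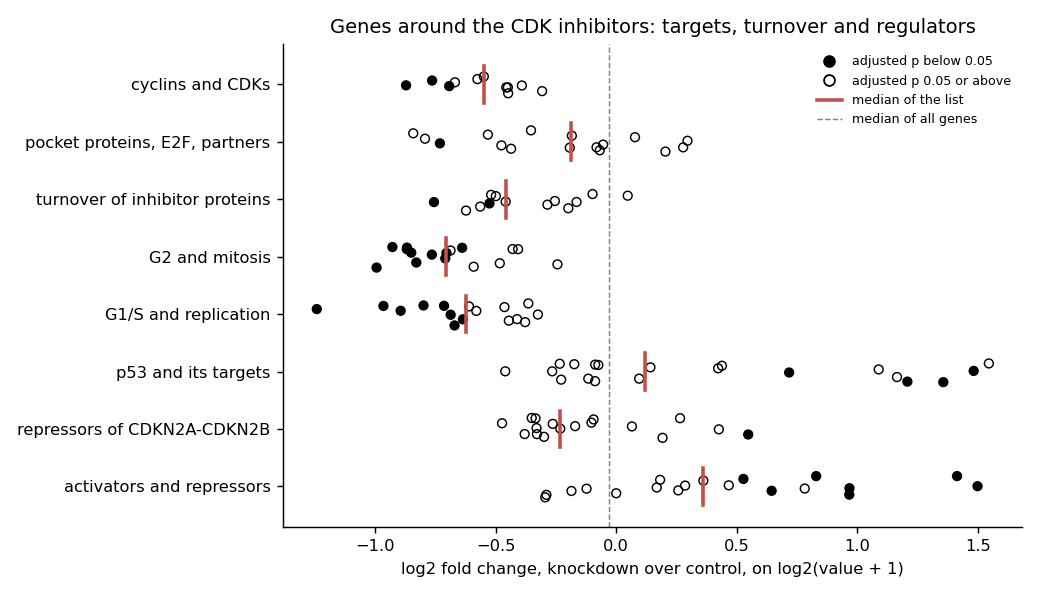
Log2 fold change, knockdown over control, of each gene tested in 8 lists around the CDK inhibitors. Filled points had an adjusted p below 0.05, the red bar is the list's median and the dashed line the median of all genes (-0.03). The cyclin and CDK list has its median at -0.55 with 3 filled points, and the list of activators and repressors has its median at 0.36 with 7.

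For the members that changed, genes with the most similar values over the 6 libraries were sought among 8151 genes with a mean log2 value of at least 3. The measure was the root mean square difference between the genes' log2 deviations from their own means, in which the difference between groups takes part, so these genes differ between groups as the member does. For CDKN2B they included ETS2 (0.139) and NUAK2, a kinase gene (0.192). For CDKN1A they were the kinase gene PIM3 (0.0736), the non-coding RNA gene MIR22HG (0.0969) and TES (0.104), which encodes testin. For CDKN2C they included SMAD6 (0.207), an inhibitor of BMP signalling, and TBC1D12 (0.228). These differed more from CDKN2C than the genes named for CDKN2B and CDKN1A did from those members.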

How the data were processed

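Huh7 total RNA was isolated with Trizol, and a TruSeq RNA kit was used for the libraries, per the labels' protocols. Titles gave the group and number of the 3 knockdown and 3 control libraries. The authors deposited 1 table of values already scaled for transcript length and library size, taken here as FPKM from their range; TPM of an incomplete gene set cannot be told apart from it. The submitters' processing notes list RSEM 1.1.17, Bowtie2 2.2.6 and Trimmomatic 0.36 among their tools, with no role, and the mouse build mm10, while all 23344 IDs are human. The build of the table is thus uncertain, and coordinates here come from RefSeq GRCh38.p14 and GENCODE 29 alone.

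The 13696 genes that reached 1 in 3 or more libraries were tested on log2(value + 1) with limma 3.58.1 in R 4.3.3 (mean-variance trend, robust, two-sided, Benjamini-Hochberg adjustment over all genes tested). Fold changes on this scale understate the change of low genes. With 3 libraries against 3 an exact permutation test cannot go below p = 0.1. The test was tried on simulated data with independent noise in each gene, which does not cover deviations that genes of a library share. Members and gene lists were chosen with earlier results of these data known. Named were the members, VCAN, up to 4 genes of each list with the smallest p, and 3 genes of most similar pattern per called member. Some of these are not reported here, and TGFBR1, SMAD3, MYC, CDK4, CDK6, MKI67, MDM2, CDKN2B-AS1, ALB, AFP, PTPRC and S100A8 were named outside the rule after their values were seen. The depth is unknown, so no counting intervals are given. The 12 alternatives were another pseudocount (0.1), no filter, 3 other scalings, the replicate number as a block, and leaving out each library.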

Additional observations from a re-analysis of the deposited data

How the results depend on the processing

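The count of changed genes, 1107, was 221 with no filter on low values. It was 3284 without knockdown replicate 1 and 56 to 244 without any 1 other library. The 1107 genes were 568 higher and 539 lower, against 680 higher and 223 lower after rescaling without mitochondrially encoded genes. Of the CDK inhibitor genes, 1 rose and 0 fell with no filter, and 1 to 2 rose and 0 to 2 fell when 1 library was left out. With no filter CDKN1A (log2 fold change 0.79, adjusted p = 0.0522) and CDKN2C (-1.09, adjusted p = 0.0943) did not pass in limma; more genes are tested then. Over the fits without 1 library the log2 fold change was 0.71 to 0.86 for CDKN1A, -1.33 to -0.86 for CDKN2C, -1.19 to -0.59 for CDKN3, -0.20 to 0.22 for CDKN2D and -1.56 to -1.23 for VCAN; such fits hold fewer libraries. CDKN2D had 0.0906 after rescaling without mitochondrially encoded genes, and its sign also turned without knockdown replicate 3 (0.22), control replicate 1 (0.08) and control replicate 2 (0.02); the cause was not tested. CDKN1C had a log2 difference of 1.43 with a pseudocount of 0.1, against 0.59 with 1, since a smaller pseudocount widens the differences of low genes. LUM, at -0.06, had 0.0415 with quantile normalization and 0.0434 with the rescaling, and -0.11 to 0.00252 when 1 library was left out. CDKN2B kept its call in all 12 alternatives. With the replicate block CDKN1A, CDKN2B and CDKN2C passed, with adjusted p = 0.0395, 0.0318 and 0.0468 in limma, and 861 genes were called; the block ended no call of a CDK inhibitor gene, but the deviations of same-numbered libraries from their group means correlated at 0.053, 0.105 and 0.135 across genes, and not every library was closest to its own number, so the numbers were not taken as pairs. With no filter, 1 gene each of the G2 and mitosis and the G1/S lists fell, 0 of the kinases and cyclins, of the turnover genes and of the pocket protein list fell, 0 of the Polycomb list, 1 of the p53 list and 4 of the activators and repressors rose. With quantile normalization and with median-of-ratios scaling the turnover rows that fell were 1, against 2. With the block 3 of the pocket protein list, 4 of the turnover rows and 1 of the Polycomb list fell, while 3 of the p53 list and 5 of the activators and repressors rose, against 4 and 7. BTG2 and CCNA2 did not pass with the block (limma adjusted p = 0.0504 for each). Count tests planned for a table of counts were not run. Unknown depth limits the low members, CDKN1C above all.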
